A study of Mus musculus with 18 samples.

Results

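The EGF family ligands and the ERBB receptors are described here in mouse mammary epithelial organoids treated with estradiol or with the mTOR inhibitor Torin 1. The members were chosen by gene symbol: the 6 ligand genes Areg, Ereg, Epgn, Btc, Hbegf and Tgfa, and the 4 receptor genes Egfr, Erbb2, Erbb3 and Erbb4. All 10 were found among 56691 features of the estradiol experiment and 56893 of the Torin experiment, and all 10 passed the filter on low counts in both, among 15358 and 18112 genes tested.

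Polyadenylated RNA was sequenced from organoids of mammary glands of nulliparous wild type C57BL/6 mice in 6 groups of 3 libraries. In the estradiol experiment, mice were about 24 weeks old, and organoids kept for 12 days in culture received 10 nM estradiol, the main estrogen, or ethanol for 11 days. In the Torin experiment, mice were about 15 weeks old, and organoids kept for 18 days in Matrigel droplets received 100 nM Torin 1 or DMSO in an arm called D6 and an arm called D12. The titles give 6 days of treatment for D6 and 12 days for D12, whereas the series design gives the reverse. Tags in the count data differ between the arms too, so arm, length of treatment and any batch cannot be told apart. Glands of 3 mice went into the organoids, and the labels do not say what separates the replicates of a group, so p-values measure the spread between these libraries, which may be technical. All organoids grew in EpiCult-B medium, with serum at the start of culture.

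As background, the ligands of this family are made as membrane-anchored precursors and are released by proteases of the ADAM family. They bind EGFR, and some also bind ERBB4. EGFR, ERBB3 and ERBB4 bind ligands, ERBB2 has no known ligand and serves as the preferred partner in dimers, and ERBB3 has little kinase activity of its own and signals through its partners to PI3 kinase. Active receptors feed the Ras-ERK cascade and PI3 kinase with AKT, and mTOR lies downstream of AKT. In the mouse mammary gland, amphiregulin, the product of Areg, is the ligand that carries the estrogen signal from hormone-sensing luminal cells to neighbouring cells during ductal growth in puberty.

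Epgn, Ereg, Areg and Btc lie next to one another, in this order, on mouse chromosome 5, and the promoters of 3 of them are shown. Areg was taken because it had the greatest Torin difference of the family in D6. Epgn, with Ereg between it and Areg, also rose, and Btc, on the other side of Areg, did not pass the test. The windows are the 250 bases before the annotated start of each gene, read on the gene's strand, from RefSeq on GRCm38.p6. They lie at chr5:91139349-91139598 on the plus strand for Areg, chr5:91027267-91027516 on the plus strand for Epgn and chr5:91402995-91403244 on the minus strand for Btc. Capitals mark matches to the cAMP response element TGACGTCA, its half-site TGACG on either strand, and the TATA box TATAAA.
Areg: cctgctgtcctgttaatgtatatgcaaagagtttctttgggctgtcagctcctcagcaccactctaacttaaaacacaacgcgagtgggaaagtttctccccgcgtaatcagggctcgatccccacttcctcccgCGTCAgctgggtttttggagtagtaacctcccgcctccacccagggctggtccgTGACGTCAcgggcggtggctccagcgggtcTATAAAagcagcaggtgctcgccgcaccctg
Epgn: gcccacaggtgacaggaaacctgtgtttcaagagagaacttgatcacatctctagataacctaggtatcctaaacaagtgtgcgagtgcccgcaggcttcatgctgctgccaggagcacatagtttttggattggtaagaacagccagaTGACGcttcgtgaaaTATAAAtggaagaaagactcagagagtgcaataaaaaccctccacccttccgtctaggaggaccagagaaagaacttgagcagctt
Btc: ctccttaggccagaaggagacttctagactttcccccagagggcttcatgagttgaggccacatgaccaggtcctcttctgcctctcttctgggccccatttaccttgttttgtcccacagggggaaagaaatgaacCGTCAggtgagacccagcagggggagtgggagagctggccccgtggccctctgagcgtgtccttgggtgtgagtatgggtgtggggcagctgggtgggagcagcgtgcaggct
The Areg window held TGACGTCA starting 61 bases before the start site (position -61), a sequence found on either strand in 1.55% of 32851 mouse promoter windows of this length. The half-site TGACG, found in 17.8% of windows, matched at -115, -61 and -58 in Areg, where the matches at -61 and -58 overlap the full element, at -101 in Epgn and at -113 in Btc. TATAAA, found in 12.4% of windows, matched at -31 in Areg and at -86 in Epgn. The RefSeq table had a window for 7 members (these 3, Tgfa, Egfr, Erbb2 and Erbb4), and Ereg, Hbegf and Erbb3 are named only. In none of the 7 did either strand hold the AP-1 letters TGANTCA, present in 6.75% of all windows, or the palindromic estrogen response element, present in 0.0639%. A match is a description of letters, and its absence says only that these letters are not in the window.

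Library totals ran from 20637765 to 24312389 counts in the estradiol experiment and from 23239364 to 28910688 in the Torin experiment. The summed level of 6 epithelial markers was 7951 to 9666 CPM (counts per 1000000 of the scaled library total) in Torin D6 and 5446 to 6659 CPM in DMSO D6 libraries, and 4596 to 5880 CPM in Torin D12 and 6758 to 7126 CPM in DMSO D12 libraries. Immune markers summed to at most 11.9 CPM in the Torin experiment, with Tyrobp, Adgre1 and Cd3e at 0 in its groups. The third library of each Torin group stood apart: per degree of freedom, the chi-square of its gene counts against the other libraries was 108 and 132 in D6 and 44.8 and 48.8 in D12, against 3.55 to 19.1 for the other pairs of a group. Several values that rest on those 2 libraries are given with and without them, but not all. In bulk RNA, fewer cells of a type and less RNA per cell cannot be told apart.

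Per kb of their longest coding transcript (GENCODE M21), the ligand with the highest level differed between groups. It was Areg in estradiol, ethanol and Torin D6 libraries, and Hbegf in DMSO D6, Torin D12 and DMSO D12 libraries. The experiments differ in mouse age and time in culture and were normalized separately, so the levels given here are not compared between them. In estradiol libraries Areg stood highest at 30.1 ± 0.31 CPM per kb, followed by Tgfa at 16.3 ± 0.66 and Hbegf at 9.79 ± 0.20, whereas Btc, Ereg and Epgn lay between 3.42 and 5.16 (Epgn at 11.3 by its shorter transcript). In ethanol libraries Areg at 22.0 ± 0.69 and Tgfa at 18.8 ± 0.40 CPM per kb also led (SD, n = 3 each). In DMSO D6 libraries Hbegf led at 17.2 ± 2.8 CPM per kb, ahead of Tgfa at 11.3 ± 1.9 and Areg at 8.45 ± 0.68. In Torin D6 libraries Areg led at 35.1 ± 6.0 CPM per kb, ahead of Hbegf at 25.7 ± 2.1 and Tgfa at 11.0 ± 2.7. In Torin D12 libraries Hbegf was first at 14.9 ± 1.1 CPM per kb, while Tgfa at 8.82 ± 0.98 and Areg at 8.48 ± 0.41 did not differ beyond their spread. In DMSO D12 libraries Hbegf was at 23.5 ± 0.84, Tgfa at 13.7 ± 0.52 and Areg at 10.4 ± 0.70 CPM per kb.

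Among receptors, Erbb3 and Erbb2 lay close together in the estradiol libraries, at 22.1 ± 1.2 and 21.0 ± 1.1 CPM per kb, within their spread. With ethanol they lay apart, at 26.6 ± 1.2 and 22.7 ± 0.20 CPM per kb. In Torin D6 libraries Erbb2 stood at 23.9 ± 1.5 CPM per kb and Erbb3 at 11.8 ± 0.93, and in DMSO D6 libraries at 22.6 ± 1.6 and 16.4 ± 1.0. The place of Egfr depended on the transcript: its annotated coding transcripts measure 10.2 and 2.94 kb, which gives 10.2 or 35.5 CPM per kb in Torin D6 libraries and 7.32 or 25.4 in DMSO D6 libraries. Erbb4 was at most 0.119 CPM per kb in any group, from 8 to 45 counts per library.

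**Figure D1:**
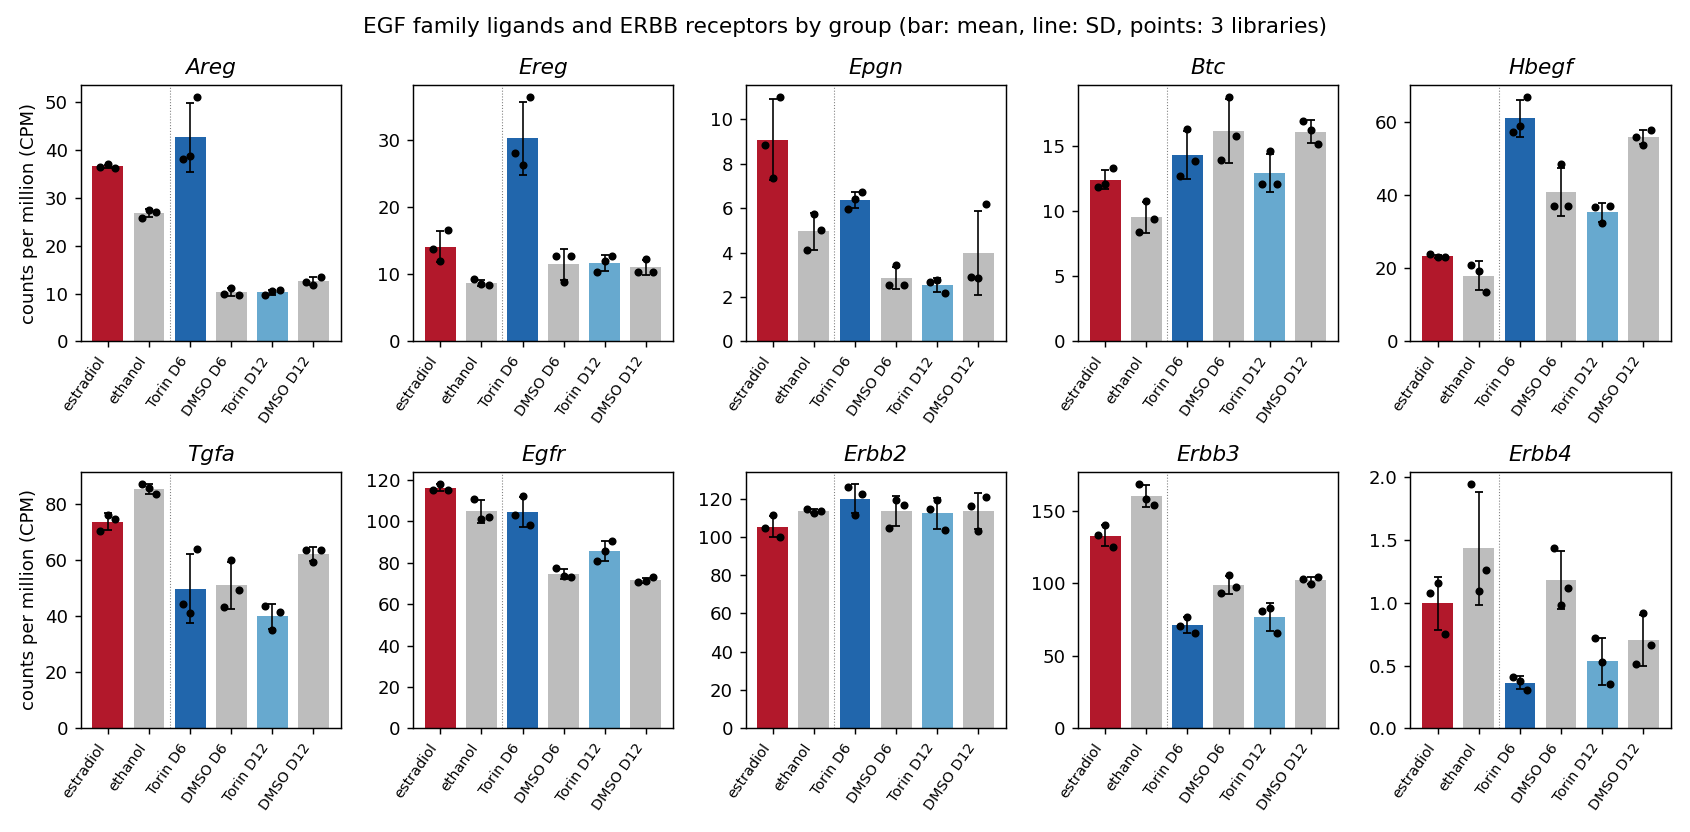
CPM (linear axis from 0) for the 10 members in the 6 groups, each treated group left of its vehicle; bars are means, lines SD and points the 3 libraries. Areg and Ereg in the Torin D6 libraries stand above the libraries of the other 3 Torin experiment groups, at 38.0 to 51.0 and 26.2 to 36.4 CPM, while Erbb2 lies between 100 and 126 CPM in all 18 libraries.

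Estradiol went with higher levels of 5 of the 6 ligand genes and a lower level of the sixth, Tgfa. Areg, Ereg, Epgn, Btc and Hbegf rose by 0.37 to 0.87 on the log2 scale, with Epgn at the top of this range. Among receptors, Egfr rose by 0.15 and Erbb3 was lower by a log2 difference of -0.27, both past the test. In all, 6 members rose and 2 fell of 10, where 34% of the 15358 genes tested were called in either direction, 17.4% up and 16.6% down (edgeR quasi-likelihood test, Benjamini-Hochberg adjusted p under 0.05 over all genes). The median log2 difference was 0.26 over the members and -0.0060 over all genes tested.

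Areg had 36.4, 37.0 and 36.3 CPM in estradiol libraries, against 25.8, 27.4 and 27.0 CPM in ethanol libraries. All estradiol values lay above all ethanol values, and the log2 difference was 0.45 (SE 0.055; edgeR adjusted p = 1.7e-05). Ereg, which encodes epiregulin, a ligand of EGFR and ERBB4, had 13.7, 12.0 and 16.6 CPM in estradiol libraries, against 9.26, 8.57 and 8.45 CPM in ethanol libraries. The groups did not overlap, and the estradiol libraries were more spread than those with ethanol; the log2 difference was 0.69 (SE 0.11; edgeR adjusted p = 0.000316).

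Epgn, the gene of epigen, a low-affinity EGFR ligand, had 8.86, 7.38 and 11.0 CPM in estradiol libraries, against 4.11, 5.76 and 5.00 CPM in ethanol libraries. Each estradiol library was above each ethanol library, and the log2 difference was 0.87 (SE 0.16; edgeR adjusted p = 0.000657). Btc, the gene of betacellulin, a ligand of EGFR and ERBB4, had 11.8, 12.1 and 13.3 CPM with estradiol, against 8.35, 10.8 and 9.38 CPM with ethanol. These ranges also lay apart, at a log2 difference of 0.38 (SE 0.11; edgeR adjusted p = 0.0117).

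Hbegf encodes heparin-binding EGF-like growth factor, another ligand of EGFR and ERBB4. It had 23.8, 23.0 and 22.9 CPM in estradiol libraries, against 21.0, 19.4 and 13.5 CPM in ethanol libraries. The third ethanol library was the low one; with it the log2 difference was 0.37 (SE 0.12; edgeR adjusted p = 0.0247), and without it 0.21 (adjusted p = 0.051). The Hbegf call was also lost in the edgeR fit with the deposited length factors (0.41, adjusted p = 0.0551) and when any one of the estradiol libraries was left out.

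Tgfa, which encodes transforming growth factor alpha, had 70.4, 76.1 and 74.6 CPM in estradiol libraries, against 87.0, 85.5 and 83.4 CPM in ethanol libraries. It was lower in each estradiol library than in any ethanol library, by a log2 difference of -0.21 (SE 0.045; edgeR adjusted p = 0.00212). Erbb3 followed the same direction, with 133, 140 and 125 CPM in estradiol libraries, against 168, 158 and 154 CPM in ethanol libraries. Its log2 difference was -0.27 (SE 0.051; edgeR adjusted p = 0.000797).

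Egfr had 115, 118 and 115 CPM in estradiol libraries, against 111, 101 and 102 CPM in ethanol libraries. The groups lay close without overlap, at a log2 difference of 0.15 (SE 0.047; edgeR adjusted p = 0.0237), and the call was lost in 4 of the 6 fits that left out a library. Erbb2 had 105, 111 and 100 CPM in estradiol libraries, against 115, 113 and 113 CPM in ethanol libraries, and did not pass the test (-0.11, 95% interval -0.21 to -0.0076; adjusted p = 0.0918). Erbb4, with 65 counts in all estradiol libraries and 97 in all ethanol libraries, gave a wide interval of -1.20 to 0.16. Of the 10 members, 9 had groups without overlap, where 46.4% of all genes tested did. In the same libraries, 8 fibroblast markers summed to 393 to 467 CPM with estradiol and 298 to 325 with ethanol, and 8 hormone-sensing luminal markers to 495 to 542 with estradiol and 625 to 641 with ethanol. Of the fibroblast markers 5 rose and 1 fell, and of the hormone-sensing markers 1 rose and 5 fell. Pgr, the riser, averaged 51.0 CPM with estradiol and 9.39 CPM with ethanol, whereas Esr1 averaged 15.0 and 28.4 CPM. The part of either marker shift in the member differences was not tested.

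Torin in D6 went with higher levels of 4 ligand genes, led by Areg at a log2 difference of 2.05, followed by Ereg at 1.40, Epgn at 1.16 and Hbegf at 0.58. Btc and Tgfa did not pass the test. Among receptors Egfr rose, Erbb3 and Erbb4 fell, and Erbb2 did not pass. In all, 5 members rose and 2 fell of 10, where 39.1% of the 18112 genes tested were called in either direction, 19.8% up and 19.3% down. The median log2 difference was 0.28 over the members and 0.048 over all genes tested. The counts of members called were equal, at 7, without replicate 3 of both Torin groups.

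Areg had 38.0, 38.8 and 51.0 CPM in Torin D6 libraries, against 9.99, 11.2 and 9.60 CPM in DMSO D6 libraries. The third Torin library was highest, and all 3 lay far above the DMSO libraries; the fold change was 4.15 (log2 2.05, SE 0.13; edgeR adjusted p = 3.73e-07), and the log2 difference was 1.90 without replicate 3 of both Torin groups. Ereg had 28.1, 26.2 and 36.4 CPM in Torin D6 libraries, against 12.8, 8.86 and 12.8 CPM in DMSO D6 libraries. It rose 2.63-fold (log2 1.40, SE 0.17, edgeR adjusted p = 6.21e-05), again with the third Torin library on top. Without replicate 3 of both Torin groups the Ereg log2 difference was 1.23.

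Epgn, at the low end of the ligands, had 5.97, 6.42 and 6.72 CPM in Torin D6 libraries, against 2.57, 3.44 and 2.56 CPM in DMSO D6 libraries. Its groups did not overlap, and it rose by a log2 of 1.16 (SE 0.28; edgeR adjusted p = 0.00686). Hbegf had 57.3, 58.9 and 66.7 CPM in Torin D6 libraries, against 37.1, 48.5 and 36.9 CPM in DMSO D6 libraries. The second DMSO library came nearest to the Torin libraries; the log2 difference was 0.58 (SE 0.11; edgeR adjusted p = 0.00158), and 0.38 with the deposited length factors, where the call was lost (adjusted p = 0.0511).

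Btc had 12.7, 16.3 and 13.8 CPM in Torin D6 libraries, against 13.9, 18.7 and 15.7 CPM in DMSO D6 libraries. These groups overlapped, and the log2 difference was -0.18 with a 95% interval of -0.49 to 0.13. Tgfa had 44.2, 41.2 and 63.8 CPM in Torin D6 libraries, against 43.4, 60.0 and 49.4 CPM in DMSO D6 libraries. Here too the groups overlapped, with an interval of -0.39 to 0.32 around a log2 difference of -0.034.

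Erbb3 had 70.1, 76.9 and 65.7 CPM in Torin D6 libraries, against 93.1, 105 and 97.3 CPM in DMSO D6 libraries. All Torin values lay below all DMSO values, at a log2 difference of -0.48 (SE 0.096; edgeR adjusted p = 0.00206). Erbb4 had only 12, 10 and 8 counts in Torin D6 libraries, against 37, 22 and 31 counts in DMSO D6 libraries. The log2 difference of -1.69 (SE 0.36; edgeR adjusted p = 0.00316) was of the same sign but not past the test with the deposited length factors (adjusted p = 0.169). Erbb2 had 126, 111 and 122 CPM in Torin D6 libraries, against 104, 119 and 116 CPM in DMSO D6 libraries, with an interval of -0.11 to 0.27 around a log2 difference of 0.081.

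Torin in D12 went with none of the ligand rises of D6 past the test. Hbegf and Tgfa fell, by log2 differences of -0.66 and -0.64, and Areg, Ereg, Epgn and Btc did not pass. The receptors Egfr and Erbb3 were called in the same directions as in D6, Egfr up and Erbb3 down. In all, 1 member rose and 3 fell of 10, where 25.4% of the 18112 genes tested were called in either direction, 10.8% up and 14.6% down. At an unadjusted p under 0.05, 7 members passed, none of them a ligand with a higher level, and DESeq2 called 4, as edgeR did. The median log2 difference was -0.35 over the members and 0.012 over all genes tested.

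Hbegf had 36.7, 32.3 and 36.9 CPM in Torin D12 libraries, against 56.0, 53.8 and 57.8 CPM in DMSO D12 libraries. The groups lay far apart (log2 -0.66, SE 0.11; edgeR adjusted p = 0.00118). Tgfa had 43.4, 34.9 and 41.4 CPM in Torin D12 libraries, against 63.6, 59.4 and 63.4 CPM in DMSO D12 libraries. It fell by a log2 of 0.64 (SE 0.16; edgeR adjusted p = 0.0135), and without the second Torin library, its lowest, the difference was -0.55 and the call was lost (adjusted p = 0.0631).

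Areg had 9.74, 10.5 and 10.7 CPM in Torin D12 libraries, against 12.5, 11.8 and 13.5 CPM in DMSO D12 libraries. The groups did not overlap, but the log2 difference of -0.29 (95% interval -0.57 to -0.0089) missed the threshold (edgeR adjusted p = 0.126). Ereg had 10.3, 12.1 and 12.7 CPM in Torin D12 libraries, against 10.4, 12.3 and 10.3 CPM in DMSO D12 libraries, and these overlapped. Epgn had 2.70, 2.77 and 2.17 CPM in Torin D12 libraries, against 2.91, 2.87 and 6.18 CPM in DMSO D12 libraries, where the third DMSO library alone was high (-0.65, 95% interval -1.27 to -0.024; adjusted p = 0.123). Btc had 12.1, 14.6 and 12.0 CPM in Torin D12 libraries, against 16.9, 16.2 and 15.1 CPM in DMSO D12 libraries, without overlap but not past the test (-0.32, adjusted p = 0.129).

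Erbb3 had 80.9, 82.9 and 65.6 CPM in Torin D12 libraries, against 103, 99.1 and 104 CPM in DMSO D12 libraries. Each Torin library was below each DMSO library (log2 -0.41, SE 0.095; edgeR adjusted p = 0.00758). Erbb2 had 115, 119 and 103 CPM in Torin D12 libraries, against 116, 103 and 121 CPM in DMSO D12 libraries, with an interval of -0.21 to 0.18. Erbb4 had 43 counts in all Torin D12 libraries and 58 in all DMSO D12 libraries and did not pass the test (-0.39, adjusted p = 0.479).

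**Figure D2:**
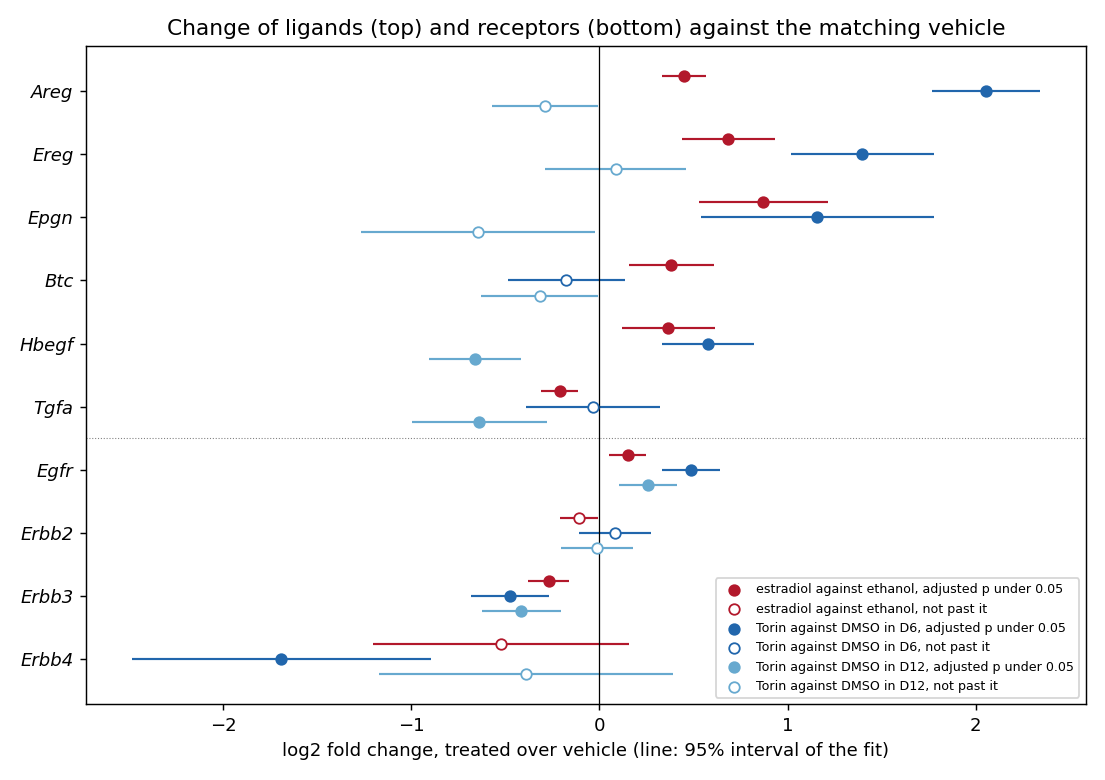
Log2 fold change of each member, treated over vehicle, with the 95% interval of the fit for estradiol, Torin in D6 and Torin in D12; filled points have an edgeR adjusted p under 0.05 and open points do not. Areg, Ereg, Epgn and Hbegf lie right of 0 with Torin in D6, at 0.58 to 2.05, and apart from Hbegf at -0.66 have open points in D12, while Erbb3 lies left of 0 in all 3 comparisons.

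The Torin effects were then compared with each other. The difference of the effects, D12 minus D6, passed the test for 4 members, all ligands and all negative, where 10.6% of genes tested were called in either direction and 5.03% as higher and 5.55% as lower in D12. It was -2.34 for Areg (SE 0.18; edgeR adjusted p = 1.66e-05), -1.80 for Epgn (SE 0.40; adjusted p = 0.0142), -1.31 for Ereg (SE 0.24; adjusted p = 0.00526) and -1.24 for Hbegf (SE 0.16; adjusted p = 0.000459). Tgfa (-0.60, adjusted p = 0.132), Btc (-0.14, 95% interval -0.58 to 0.30) and the 4 receptors did not pass this test. For Erbb3 the difference of effects was 0.061, with an interval of -0.23 to 0.36. All 4 calls were also made in each of the fits that left out a library and without replicate 3 of both Torin groups. The size of the Epgn difference was less steady. It ran from -1.99 to -1.34 over the alternative fits listed below, and the third DMSO D12 library alone was high, at 6.18 CPM.

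The DMSO groups bear on that difference, since their levels enter it. Between DMSO D12 and DMSO D6, edgeR and DESeq2 called 0 of 10 members, and edgeR called 0.00552% of all genes tested, which is 1 gene. At an unadjusted p under 0.05, Areg, Hbegf and Erbb4 passed. The DMSO groups did not overlap in CPM for 4 of 10 members, these and Egfr, where 12.2% of all genes tested did not. Hbegf was higher in DMSO D12, at 53.8 to 57.8 CPM, than in DMSO D6, at 36.9 to 48.5 CPM (log2 0.45, SE 0.11; adjusted p = 1). Areg was at 11.8 to 13.5 CPM in DMSO D12 and at 9.60 to 11.2 CPM in DMSO D6 (log2 0.30, SE 0.13; adjusted p = 1). The tags in the count data run with the arms, so none of these differences can be separated from any batch.

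The Torin difference of Egfr depended on the scale. Egfr had 103, 112 and 98.4 CPM in Torin D6 libraries, against 77.5, 73.7 and 73.0 CPM in DMSO D6 libraries (log2 0.48, SE 0.070; edgeR adjusted p = 0.000204). In D12 it had 80.7, 85.6 and 90.7 CPM in Torin libraries, against 70.9, 71.0 and 72.9 CPM in DMSO libraries (log2 0.26, SE 0.070; adjusted p = 0.0177). This D12 call was also lost in edgeR fits without DMSO D12 replicate 1 (adjusted p = 0.0647), DMSO D12 replicate 2 (0.0611) or Torin D12 replicate 3 (0.0521). Neither pair of groups overlapped in CPM. Over all members, 7 of 10 had groups without overlap in D6 and 7 of 10 in D12, where 48.5% and 43.7% of all genes tested did.

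The authors also deposited a normalized signal, in which counts are divided by factors that differ from gene to gene within a library. For Egfr, count over signal ran from 0.892 to 1.18 in Torin D6 libraries and from 0.729 to 0.933 in DMSO D6 libraries. The signal averaged 2691 ± 188 in Torin D6 libraries and 2208 ± 48 in DMSO D6 libraries, and 2126 ± 382 in Torin D12 libraries and 1971 ± 112 in DMSO D12 libraries (SD, n = 3 each). With those factors as offsets, the log2 differences were 0.28 in D6 (edgeR adjusted p = 0.0675) and 0.11 in D12 (adjusted p = 0.55), so both calls were lost. In the estradiol experiment the signal averaged 2670 ± 144 with estradiol and 2193 ± 174 with ethanol.

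**Figure D3:**
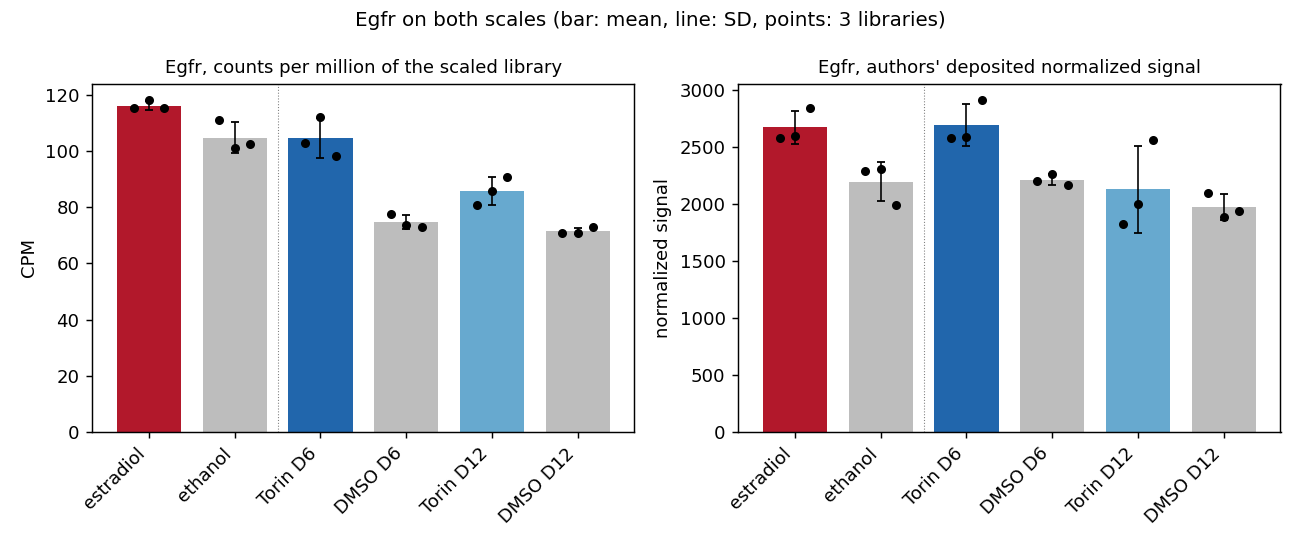
Egfr on both scales, CPM (left) and the authors' normalized signal (right, arbitrary units), for the 6 groups, each treated group left of its vehicle; bars are means, lines SD and points the 3 libraries. The Torin D12 and DMSO D12 groups lie apart in CPM but overlap in the signal, where Torin D12 libraries run from 1823 to 2555.

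The counts of pathway genes that follow are read against the shares of all genes called. Without replicate 3 of both Torin groups, the share called up in D6 stayed at 19.8%. The other shares rose, to 21.6% down in D6 and to 17.5% up and 18% down in D12. No list count in that fit was tested against these shares, so a higher count is not read as a result about the list.

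Of the other ERBB ligand genes, Nrg1 (neuregulin 1, a ligand of ERBB3 and ERBB4) had 33.7, 36.5 and 36.0 CPM in Torin D12 libraries, against 21.4, 22.7 and 21.3 CPM in DMSO D12 libraries, and rose by 0.70 (SE 0.14; edgeR adjusted p = 0.00302). In D6 it rose by 0.46 (SE 0.14; adjusted p = 0.0198), with 22.6 to 33.7 CPM in Torin and 17.6 to 22.3 CPM in DMSO libraries. Nrg2 fell with estradiol, with 6.61, 6.65 and 5.08 CPM against 9.74, 12.7 and 12.8 CPM with ethanol (log2 -0.94, SE 0.14; adjusted p = 8.34e-05). Its D6 call rested on 1 library: Torin D6 libraries had 1.09, 0.676 and 29.1 CPM and DMSO D6 libraries 0.313 to 0.686, giving 4.25 with all libraries and 0.71 (adjusted p = 0.281) without replicate 3 of both Torin groups. Egf stayed at or under 1.60 CPM and Nrg4 at or under 0.846 CPM in every library, and neither passed any of the 3 treatment tests. Nrg3 was too low to test.

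The genes that release the ligands were called in both directions. With estradiol 3 of 5 rose and 1 fell: Frmd8 and Rhbdf2, whose products help ADAM17 to mature and act at the cell surface, each rose by 0.33 (adjusted p = 5.34e-05 and 0.000377), and the protease gene Adam10 fell by 0.18 (adjusted p = 0.0023). With Torin in D6, 2 of 5 rose and 1 fell, and without replicate 3 of both Torin groups 4 rose. Adam10 had 311, 362 and 284 CPM in Torin D6 libraries, against 444, 447 and 451 CPM in DMSO D6 libraries (log2 -0.49, SE 0.11; adjusted p = 0.00322). In D12, 1 rose (Rhbdf1, 0.38) and 1 fell (Adam17, the main sheddase of Areg and Tgfa, -0.23, adjusted p = 0.03).

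Among 10 genes that restrain the receptors or send them to degradation, 3 rose with Torin in D6, and 2 rose and 1 fell in D12; without replicate 3 of both Torin groups, 3 rose and 1 fell in D6, and 4 rose and 1 fell in D12. Errfi1, whose product binds and inhibits the EGFR kinase, had 559, 543 and 553 CPM in Torin D6 libraries, against 323, 330 and 322 CPM in DMSO D6 libraries, and rose by 0.76 (SE 0.061; edgeR adjusted p = 2.06e-06). In D12 it rose by 0.54 (SE 0.061; adjusted p = 7.52e-05). Cblb, a ubiquitin ligase gene of the Cbl family, rose by 0.97 in D6 and 0.43 in D12, and Cblc of the same family was lower in D12 by a log2 of -0.95, all past the test. Lrig1, which encodes a membrane protein that promotes receptor turnover, rose by 1.44 in D6 and by 0.58 without replicate 3 of both Torin groups. With estradiol 1 of the 10 rose (Lrig1, 0.20) and 3 fell, among them Cblc (-0.32) and Lrig3 (-0.28).

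Of 16 adaptor and Ras-ERK cascade genes, 5 rose with estradiol, where 17.4% of genes tested were called up; Ptpn11 (0.25) and Map2k2 (0.18) were among them. With Torin in D6, 4 rose and 1 fell, and in D12, 1 rose and 1 fell. Map2k1, the gene of the kinase MEK1, fell with Torin in both arms, at log2 differences of -0.67 in D6 and -0.53 in D12, and Ptpn11, the gene of the phosphatase SHP2, rose in both, by 0.37 and 0.28. The rise of Hras in D6 rested on 1 library, at 6.00, 6.31 and 72.4 CPM in Torin D6 libraries and 4.48 to 4.83 CPM in DMSO D6 libraries; it was 2.60 with all libraries and 0.39 (adjusted p = 0.11) without replicate 3 of both Torin groups. Without those libraries 4 of the 16 rose and 2 fell in D6, and 5 rose and 2 fell in D12.

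Of 9 genes of the PI3 kinase arm, 4 rose and 1 fell with estradiol, and 1 rose and 1 fell with Torin in D6. In D12, 0 rose and 1 fell. Without replicate 3 of both Torin groups, 0 rose and 2 fell in D6, and 2 rose and 1 fell in D12. Pik3r1, which encodes the regulatory subunit p85 alpha, had 236, 258 and 193 CPM in Torin D6 libraries, against 433, 487 and 472 CPM in DMSO D6 libraries (log2 -1.02, SE 0.11; edgeR adjusted p = 1.85e-05). Akt1 had 41.3, 49.6 and 257 CPM in Torin D6 libraries, against 38.5, 43.2 and 35.9 CPM in DMSO D6 libraries; its difference of 1.57 became 0.21 (adjusted p = 0.0954) without replicate 3 of both Torin groups.

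Genes known to respond to ERK were called in both directions in each comparison. With estradiol 6 of 22 rose and 7 fell; Egr3, an early growth response factor gene, had 77.3, 77.6 and 69.5 CPM in estradiol libraries, against 31.2, 28.0 and 31.7 CPM in ethanol libraries (log2 1.31, SE 0.060; edgeR adjusted p = 6.97e-10). With Torin in D6, 4 rose and 8 fell. Myc rose by 1.36 (SE 0.088; adjusted p = 3.82e-07), while Etv5, an ETS factor gene, and Spry4, the gene of a feedback inhibitor of the cascade, fell by log2 differences of -0.89 and -1.09. In D12, 3 rose and 5 fell, with Egr2 (0.69) and Myc (0.52) up and Jun (-0.83) down. Without replicate 3 of both Torin groups, 6 rose and 8 fell in D6, and 9 rose and 6 fell in D12.

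**Figure D4:**
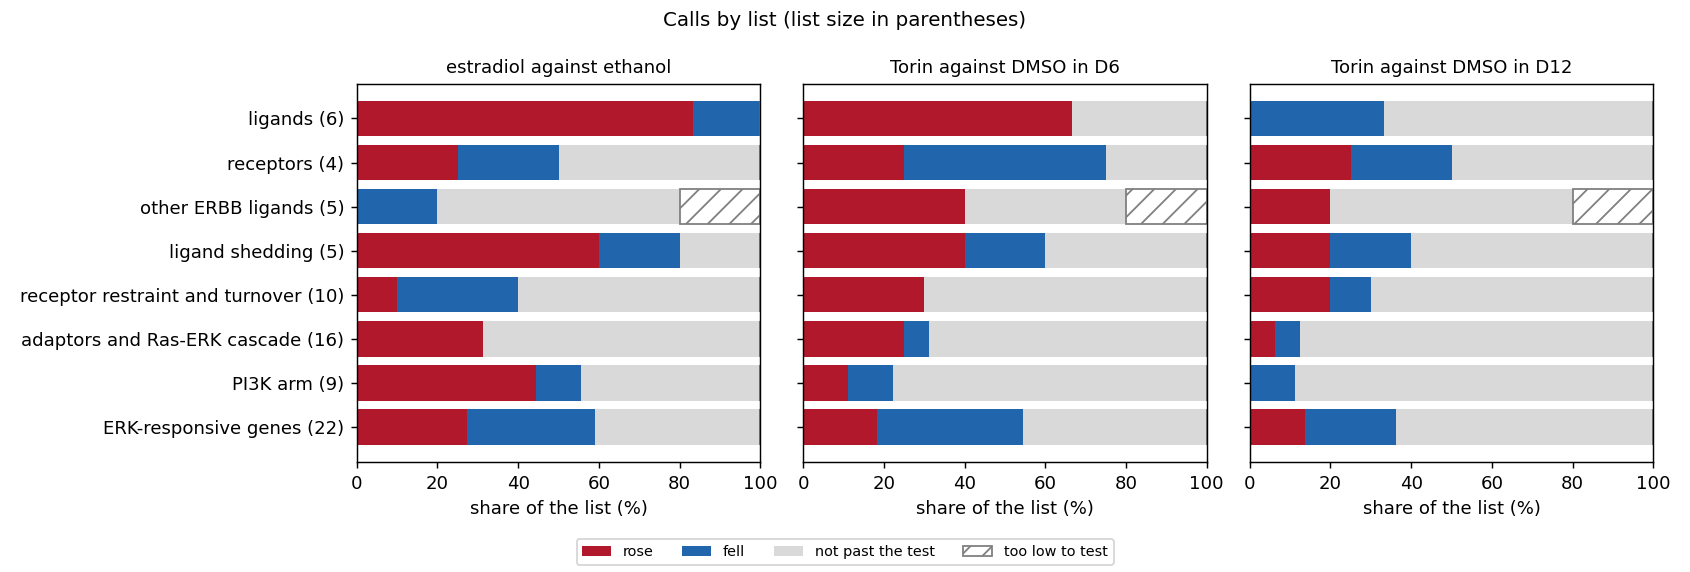
Share of each gene list (horizontal axis, percent of the list; list size in parentheses) that rose, fell, did not pass the edgeR test at an adjusted p under 0.05, or was too low to test, for estradiol, Torin in D6 and Torin in D12. All 6 ligands are called with estradiol, 5 up and 1 down, while ERK-responsive genes split, 6 up and 7 down with estradiol.

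Markers of other cells moved in the Torin libraries too. The 8 fibroblast markers summed to 284 to 317 CPM in Torin D6 libraries, against 894 to 1249 CPM in DMSO D6 libraries, and all 8 fell; in D12 they summed to 723 to 1032 CPM with Torin and 898 to 1039 CPM with DMSO. Of the 6 epithelial markers, 4 rose and 1 fell in D6, and 4 fell in D12, or 6 without replicate 3 of both Torin groups. Luminal progenitor markers summed to 3397 to 3545 CPM in Torin D6 and 4425 to 5068 CPM in DMSO D6 libraries, and to 4447 to 4600 CPM in Torin D12 and 4721 to 5011 CPM in DMSO D12 libraries. Of these 8 markers, 2 rose and 5 fell in D6, and 0 rose and 3 fell in D12. Basal myoepithelial markers summed to 1684 to 2118 CPM in Torin D6 and 2423 to 2828 CPM in DMSO D6 libraries, and to 1772 to 2332 CPM in Torin D12 and 3254 to 3470 CPM in DMSO D12 libraries. Single basal markers went both ways. Of 9, 3 rose and 2 fell in D6, and 2 rose and 4 fell in D12. Markers of hormone-sensing luminal cells, which make amphiregulin in the gland, summed to 571 to 662 CPM in Torin D6 and 800 to 860 CPM in DMSO D6 libraries, and to 571 to 660 CPM in Torin D12 and 741 to 817 CPM in DMSO D12 libraries. Of these 8 markers, 1 rose and 5 fell in each arm. The part of these shifts in the ligand and receptor differences was not tested.

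The position of the 4 ligand genes on chromosome 5 was not used to choose them. Their neighbours, 10 protein-coding genes on each side in RefSeq order, were looked at after the Torin values had been seen and are given as a description. On the side of Epgn, 7 neighbours were measured in the Torin experiment; in D6, 6 rose, where 19.8% of all genes tested rose, and in D12, 3 rose and 1 fell, where 10.8% rose and 14.6% fell. They include the chemokine genes Cxcl5 (3.19), Cxcl1 (1.85) and Cxcl2 (1.86) in D6, whose products attract neutrophils. On the side of Btc, 7 were measured; in D6, 4 fell, where 19.3% of all genes tested fell, with Odaph at -2.29 and Parm1 at -0.71, and in D12, 5 fell. Without replicate 3 of both Torin groups, 5 rose and 1 fell on the side of Epgn in D6, as Mthfd2l, the gene next to Epgn, was at 1.58 with them and 0.42 (adjusted p = 0.228) without. With estradiol, 2 of 7 neighbours on the side of Epgn rose and 2 fell, and 2 of 6 on the side of Btc rose and 1 fell.

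**Figure D5:**
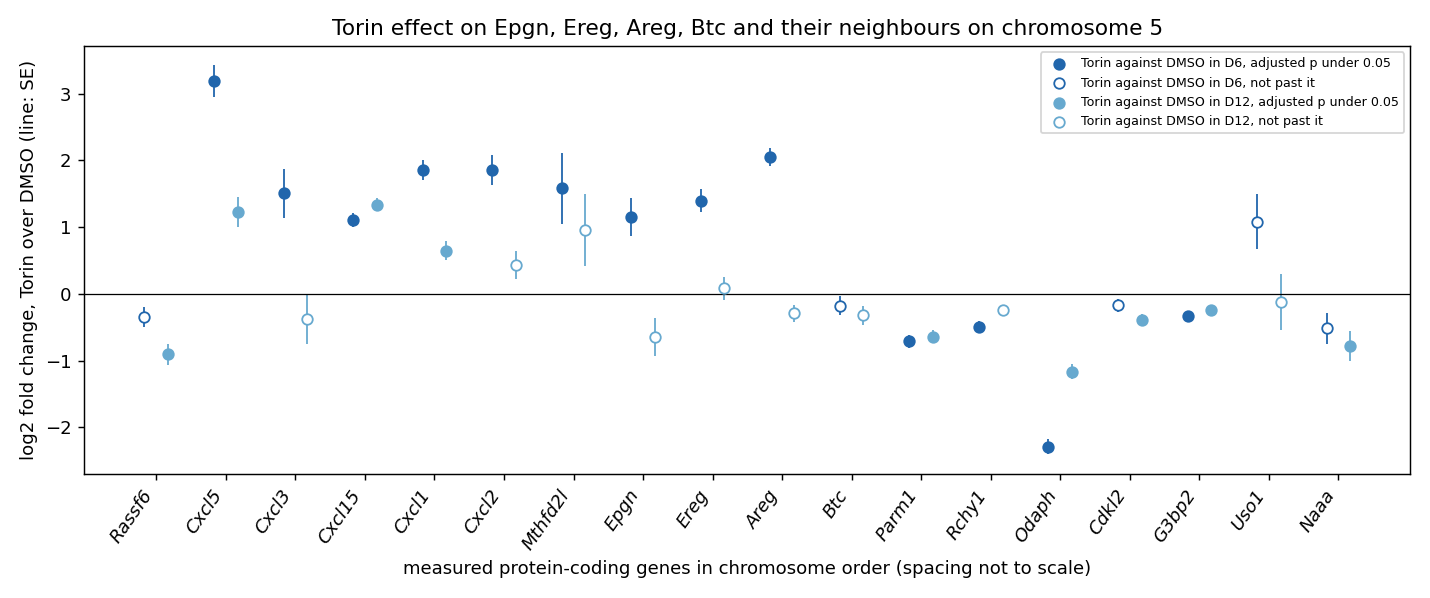
Log2 fold change of Torin over DMSO (vertical axis; line, SE of the fit) in D6 and D12 for the measured protein-coding genes around Epgn, Ereg, Areg and Btc, in chromosome order with spacing not to scale; filled points have an edgeR adjusted p under 0.05. In D6 the points from Cxcl5 to Areg lie above 0, and from Btc on most lie below it, as Odaph does at -2.29.

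The genes whose log2 level over the 12 Torin experiment libraries was most like that of a member are given by Pearson's r among genes of at least 5 CPM on average. For Areg they were Bloc1s2 (r = 0.988), Pglyrp3 (0.986) and Ywhaz (0.985), and for Ereg Bzw1 (0.972), Soga3 (0.970) and Ccl5 (0.969). For Epgn they were Bcar1, Palld and Tnfrsf22 (0.945 to 0.927), for Hbegf Mrpl38, Krt7 and Hmga1 (0.960 to 0.944), for Tgfa Arf1, Mta3 and Plp2 (0.924 to 0.909), and for Btc Wwc1, Anxa4 and Crim1 (0.840 to 0.836). Among receptors they were Ttll7, Pkia and Ints4 for Egfr (0.979 to 0.978), Pstpip1, Tmem184b and Atxn2l for Erbb2 (0.804 to 0.762), D17H6S56E-5, Polh and Muc20 for Erbb3 (0.990 to 0.986) and Capsl, Ncapg2 and Tmem252 for Erbb4 (0.949 to 0.893). The libraries fall into 4 groups, so these values mostly repeat the differences between groups and give no relation within them.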

How the data were processed

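Polyadenylated RNA of 18 libraries in 6 groups of 3 was analysed, with groups taken from the labels. Per the submitters' processing notes, kallisto, DESeq2, cutadapt with Trim Galore, and FastQC with MultiQC were used with GRCm39; roles and versions are not given there. The authors' estradiol table holds estimated counts, 32.2% of them not whole, which were rounded, and their deposited Torin table holds whole counts by symbol. A normalized signal, also deposited for each experiment, entered alternatives only.

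Each experiment was fitted in R 4.3.3 with edgeR 4.0.16 (filterByExpr, TMM scaling, quasi-likelihood test on group means, no covariates), with Benjamini-Hochberg adjustment over all genes and a threshold of 0.05. CPM are relative to the TMM-scaled total, as mean ± SD of 3 libraries. The biological coefficient of variation was 5.27% for estradiol and 20.2% for Torin, so equal differences were measured less precisely with Torin. No library was a copy of another. Estradiol symbols came from the file (39334) or an identifier table (12739). The scripts were tested on simulated data.

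Members and lists were chosen with earlier results of these data known. Besides the members, the text names at most 3 called genes of lowest p per pathway list and comparison, Egf, Nrg1 to Nrg4, and the 3 genes most like each member on log2(CPM + 0.5); some genes taken by this rule are not reported here. Neighbours of the chromosome 5 genes and single library values were picked after values were seen. Alternatives were RLE size factors, DESeq2 1.42.0, a fit with no filter, one requiring 1 CPM in 3 libraries, other thresholds, a fit of the compared groups alone, a replicate block, limma 3.58.1 on log2(signal + 1), the deposited length factors as offsets, and each library left out. Omission of replicate 3 of both Torin groups was added after seeing the data. Torin samples that the series text counts beyond these 12 were not analysed here.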

Additional observations from a re-analysis of the deposited data

Results flagged for a closer look

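The Torin effect differed between the arms for 4 ligand genes by the test of the difference itself (D12 minus D6, edgeR quasi-likelihood test). The log2 difference of effects was -2.34 for Areg (adjusted p = 1.66e-05), -1.31 for Ereg (adjusted p = 0.00526), -1.80 for Epgn (adjusted p = 0.0142) and -1.24 for Hbegf (adjusted p = 0.000459). Over the alternatives the Epgn value ran from -1.99 to -1.34. Areg averaged 42.6 ± 7.3 CPM in Torin D6 and 10.3 ± 0.82 CPM in DMSO D6 libraries, and 10.3 ± 0.50 CPM in Torin D12 and 12.6 ± 0.85 CPM in DMSO D12 libraries (SD, n = 3 each). The rule for a single outlying value within a group was not applied, since it needs groups of at least 4.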

How the results depend on the processing

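Single genes were followed for the members, the other ERBB ligand genes and the pathway genes picked for naming. Among these, no log2 difference past the test changed sign under any alternative. Other pathway genes entered the alternatives only as list counts. With an adjusted p under 0.01, 5 members were called with estradiol and 2 with Torin in D12. With at least a 2-fold change, 0 were called with estradiol, 4 with Torin in D6 and 0 with Torin in D12. With the deposited length factors as offsets, 4 were called with Torin in D6. Leaving out each library in turn gave 6 to 8 members with estradiol, 7 to 7 with Torin in D6, 3 to 4 with Torin in D12, 4 to 4 for the difference of the Torin effects and 0 to 0 between DMSO groups. Among single members, the Egfr call in D12 was also lost without a filter (adjusted p = 0.0875), and Erbb2 was called with estradiol without the second estradiol library (-0.15, adjusted p = 0.0354). Counts over all genes also moved: 3397 genes were called with estradiol at an adjusted p under 0.01, and the difference of the Torin effects had 3308 genes without replicate 3 of both Torin groups against 1917 with them. Between the DMSO groups, 13 genes were called by DESeq2, 4 without a filter and 16 in a fit of these groups alone, against 1.

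Replicate numbers did not pair libraries (correlations of same-numbered deviations from -0.184 to 0.111). With the replicate block, 8 members were called with estradiol, 7 with Torin in D6, 4 in D12, 4 for the difference of the Torin effects and 0 between DMSO groups.

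Depth limited Erbb4, at 8 to 45 counts per library, and arm, treatment length and any batch could not be separated.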

Other observations

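Several pathway genes of the third Torin D6 library lay near the levels of the estradiol experiment and far from the other Torin experiment libraries. Hras had 72.4 CPM there, against 6.00 and 6.31 CPM in the other Torin D6 libraries, with 77.1 to 82.8 CPM in estradiol and 63.5 to 72.1 CPM in ethanol libraries. Akt1 had 257 CPM there, against 41.3 and 49.6 CPM in the other Torin D6 libraries, with 272 to 277 CPM in estradiol and 244 to 258 CPM in ethanol libraries. Lrig1 had 198 CPM there, against 56.7 and 60.1 CPM in the other Torin D6 libraries, with 236 to 253 CPM in estradiol and 205 to 218 CPM in ethanol libraries. Of the members, Areg at 51.0 CPM, Ereg at 36.4 CPM, Epgn at 6.72 CPM, Hbegf at 66.7 CPM and Tgfa at 63.8 CPM were highest in that library within their group. The experiments were normalized separately. These genes were picked after their values were seen, and no test was made.

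Cxcl15, a chemokine gene near Epgn, rose in all 3 treatment comparisons, by 1.67 with estradiol, 1.11 with Torin in D6 and 1.34 with Torin in D12 (edgeR adjusted p = 3.05e-09, 5.33e-06 and 4.58e-06), and was picked after its values were seen.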
